A study of Mus musculus with 6 samples.

Results

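Bronchioalveolar stem cells (BASC), sorted from mouse lung as cells carrying both the CCSP-mCherry and the SPC-YFP reporter, were compared with Club cells, sorted as carrying CCSP-mCherry. Each population was represented by 2 samples, so the comparison rests on 4 of the 6 samples of the series; the other 2 samples are alveolar type 2 (AT2) cells sorted on SPC-YFP, which entered the fit so that all groups shared 1 estimate of the spread. All cells came from mice aged 8 weeks, and the lung homogenates had been depleted of cells bearing CD31 (endothelial cells) or CD45 (immune cells) before sorting on the reporters. Reporter expression follows the Scgb1a1 gene (CCSP) and the Sftpc gene (SPC). The labels give no treatment and do not say that the 2 samples of a population came from separate animals, so every p-value below measures only the spread between these samples. The deposited table held 22239 genes, of which 17721 had a value of at least 10 in at least 2 of the 6 samples and were tested, 13369 of them protein coding. The question was which gene families, pathways and non-coding RNAs, beyond the reporter genes, differed between the double-reporter cells and the Club cells.

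Club cells are the secretory cells of the bronchioles. They release secretoglobins and defence proteins into the airway lining and carry much of the lung's capacity to oxidise and conjugate inhaled chemicals. AT2 cells line the alveoli, rest on a basement membrane of type IV collagen and laminin, and make, store and recycle surfactant lipid. BASC sit where the terminal bronchiole opens into the alveolar duct and are known for expressing genes of both cell types.

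Estimated depth was of the same order in all samples. Values are normalised read counts, and the spacing of the low values put the reads behind them at 10122640 and 14712956 in BASC and at 15434105 and 12718251 in Club cells. The spacing fitted least well for Club replicate 2 (correlation 0.594, against 0.849 to 0.965 in the other samples), so its estimate is the least sure. The limit set by a count of 0, taken as 3 reads, was worth 2.48 to 4.02 units in these 4 libraries and covers counting error only. Replicates of highly expressed genes (mean over 1000) differed by a median of 0.17 on the log2 scale in BASC and by 0.13 in Club cells, and those of genes with means of 10 to 100 by 1.23 and 0.71, so low values carry wide errors. In BASC, Sftpc was 290809 and 307458 and Scgb1a1 was 43993 and 58791; the Club values were 240 and 224 for the former and 751642 and 760675 for the latter. Both genes drive the sorted reporters, so these values check the labels and are not a finding. All 17 AT2 identity markers were higher in BASC, and 16 of 20 tested Club identity markers were lower, the exceptions being Cyp2b10, Krt15, Nupr1 and Sox2. In bulk RNA, fewer cells of a type and less RNA per cell cannot be told apart.

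Of the 17721 genes, 1022 (5.77%) were higher and 961 (5.42%) lower in BASC than in Club cells at a limma adjusted p under 0.05. In 990 of the higher genes both AT2 values also lay above both Club values. In 940 of the lower genes both AT2 values lay below them. Most calls thus had the same direction in AT2 cells and are not particular to BASC. The median log2 difference over all tested genes was -0.10. At an unadjusted limma p under 0.05, 2001 of the 17721 genes were higher and 2352 lower. List counts at that threshold below are to be read beside these. In every one of the called genes both BASC values lay on the same side of both Club values. Over all 17721 tested genes this held for 4239 with BASC higher and 5327 with BASC lower. With 2 samples per group a call nearly requires it, so it is not separate evidence of agreement. At least a 2-fold gap between the nearest samples of the 2 groups was present for 693 of the higher genes (3.91% of all tested) and 785 of the lower genes (4.43%). Among protein-coding genes alone, 925 (6.92%) were higher and 851 (6.37%) lower. The 2 directions differed in level: 528 of the higher genes but 342 of the lower genes had a mean of at least 1000 in the population with more, and 271 of the lower genes were listed at 0 in both BASC libraries whereas 90 of the higher genes were listed at 0 in both Club libraries. With 2 samples per group the calls depend on each library. Without BASC replicate 1 or 2, 430 and 428 genes were higher and 414 and 362 lower, and without Club replicate 1 or 2, 364 and 361 were higher and 340 and 344 lower; the group left with 1 sample was assumed to vary like the others. Of the original calls, 273 higher and 132 lower genes passed in all 6 fits that each leave out 1 library, AT2 included. Below, genes are said to keep their call where they passed all 6 of these fits. Differences are log2(BASC + 1) minus log2(Club + 1) with the SE of the fit, n = 2 per group, and folds are ratios of group means.

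**Figure D1:**
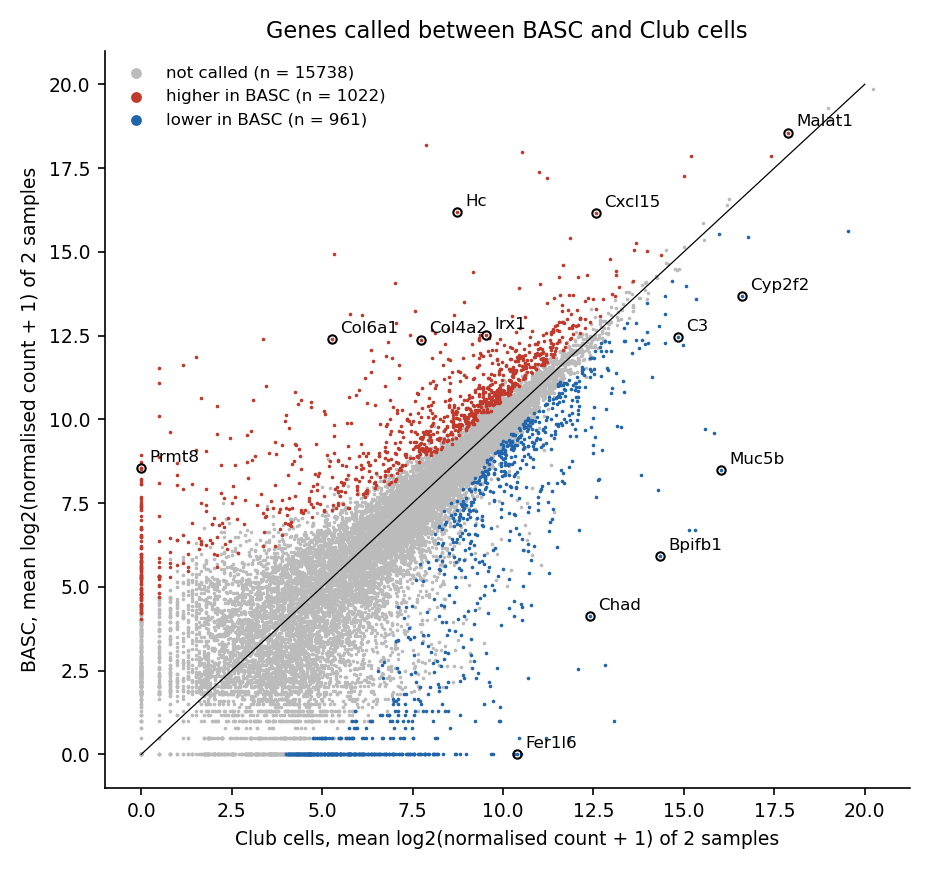
Mean log2(normalised count + 1) of 2 samples in Club cells (x axis) and BASC (y axis) for the 17721 tested genes. Genes called higher (red) or lower (blue) in BASC are coloured, grey genes were not called, and some are labelled. The 1022 higher calls lie above the diagonal and the 961 lower calls below it, many of the latter at 0 on the BASC axis.

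Genes for basement membrane and matrix proteins held more calls towards BASC than towards Club cells. Of 29 tested collagens, laminins, nidogens and related matrix genes, 14 were higher in BASC and 3 lower, with a median log2 difference of 1.04. Col4a1 and Col4a2, which encode the α1 and α2 chains that assemble into the common type IV collagen network of basement membranes, were measured at 5850 and 6476 against 230 and 340, and at 5432 and 5188 against 156 and 289. The groups did not overlap for either gene. The differences were 4.46 ± 0.20 (21.6-fold, limma adjusted p = 3.33e-05) and 4.64 ± 0.26 (23.9-fold, adjusted p = 7.61e-05), and both genes kept their call. The 2 genes lie head to head on chromosome 8 (GRCm38), Col4a1 at 11198423 to 11312826 on the minus strand and Col4a2 at 11312805 to 11449287 on the plus strand, and are known to be transcribed from 1 shared promoter region. Their RefSeq (GRCm38.p6) promoter windows, from 250 bases before to 50 bases after each start, are shown because the pair moved together; the 78 bases that the windows have in common are in capitals, each printed 5′ to 3′ on its gene's own strand (Col4a2 chr8:11312555-11312854, plus strand; Col4a1 chr8:11312777-11313076, minus strand).
Col4a2 promoter: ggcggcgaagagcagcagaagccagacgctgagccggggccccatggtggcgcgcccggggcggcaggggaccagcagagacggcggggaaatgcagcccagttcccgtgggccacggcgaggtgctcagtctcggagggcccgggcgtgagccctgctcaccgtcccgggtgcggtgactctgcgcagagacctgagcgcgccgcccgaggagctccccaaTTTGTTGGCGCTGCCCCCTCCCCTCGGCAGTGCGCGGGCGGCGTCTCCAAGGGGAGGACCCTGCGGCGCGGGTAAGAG
Col4a1 promoter: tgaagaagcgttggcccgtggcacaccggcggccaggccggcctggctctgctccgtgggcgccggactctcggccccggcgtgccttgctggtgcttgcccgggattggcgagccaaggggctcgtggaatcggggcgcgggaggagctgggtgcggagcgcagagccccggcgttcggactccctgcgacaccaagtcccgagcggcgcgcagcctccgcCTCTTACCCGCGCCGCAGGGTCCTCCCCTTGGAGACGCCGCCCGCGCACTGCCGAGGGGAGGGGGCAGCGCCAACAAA
The windows are rich in G and C, at 73.7% for Col4a2 and 74.0% for Col4a1.

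Other chains of the same families differed in both directions. Col6a1 and Col6a2, 2 of the chains of the beaded-filament collagen VI, lie on chromosome 10 and stood at 6381 and 4475 against 54 and 26 (7.12 ± 0.33, 136-fold, adjusted p = 3.93e-05) and at 1523 and 1125 against 18 and 34 (50.9-fold, adjusted p = 9.39e-05). Lamb3, the β3 chain of laminin-332, was 4909 and 5302 against 81 and 157 (5.49 ± 0.31, 42.9-fold, adjusted p = 7.91e-05); AT2 cells had 1938 and 2711. All 3 genes kept their call. Lama3, the α3 chain of the same laminin, was 313 and 614 against 77 and 23 (9.27-fold, adjusted p = 0.0143). The heparan sulfate proteoglycan perlecan, Hspg2, was 13.1-fold higher in BASC (1692 and 1359 against 132 and 101, adjusted p = 9.79e-05), and Col18a1, which encodes the precursor of endostatin, was 31 and 51 against 0 in both Club libraries, at least 14.7-fold higher (adjusted p = 0.00841). In the other direction, Lama4 was listed at 0 in both BASC libraries and at 214 and 283 in Club cells, at least 73.5-fold lower (adjusted p = 0.00773). Col4a5, a chain of a different type IV collagen network, was 646 and 884 against 2593 and 2918 (-1.86, 3.60-fold lower, adjusted p = 0.00139), and Frem1, an extracellular matrix protein of the epithelial surface, was 21 and 16 against 472 and 581 (28.5-fold lower, adjusted p = 0.0167). The broadly used laminin chains Lama5 (4756 and 3745 against 4451 and 4441, adjusted p = 0.806) and Lamb2 (1809 and 2323 against 2284 and 2280, adjusted p = 0.595) overlapped between the groups. Lama3 and Lama4 lost their call without any 1 of the 4 libraries (up to adjusted p = 0.164), as did Frem1 (0.12), while Col18a1 lost it without BASC replicate 2 or either Club replicate (0.0684) and Col4a5 without either Club replicate (0.0706).

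Genes for integrins, for an integrin ligand and for secreted metalloproteases were called too, in both directions. Of 14 integrin genes, 3 were higher and 1 lower, with a median of 0.48. Itga9, the α9 subunit, was 4559 and 5262 against 294 and 384 (3.86 ± 0.18, 14.5-fold, adjusted p = 3.7e-05). Npnt, nephronectin, an integrin ligand of basement membranes, was 2606 and 3800 against 116 and 166 (22.7-fold, adjusted p = 0.000116). Both kept their call. Itgb4, the β4 subunit of hemidesmosomes that binds laminin-332, had the opposite direction, at 130 and 246 against 1060 and 950 (5.35-fold lower, adjusted p = 0.0184), while its partner Itga6 was 828 and 370 against 393 and 470 (adjusted p = 0.613). Itga3, the α3 subunit, was higher, at 1712 and 1689 against 1170 and 1096 (0.59 ± 0.14, adjusted p = 0.0383). Adamts1, a secreted metalloprotease that cleaves proteoglycans, was 19.8-fold higher (2837 and 1485 against 133 and 85, adjusted p = 0.000356) and kept its call, whereas Adamts5, of the same family, was 66.4-fold lower (16 and 28 against 1661 and 1260, adjusted p = 0.0192). Itgb4, Itga3 and Adamts5 lost their call without any 1 of the 4 libraries, with adjusted p up to 0.273, 0.173 and 0.291.

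**Figure D2:**
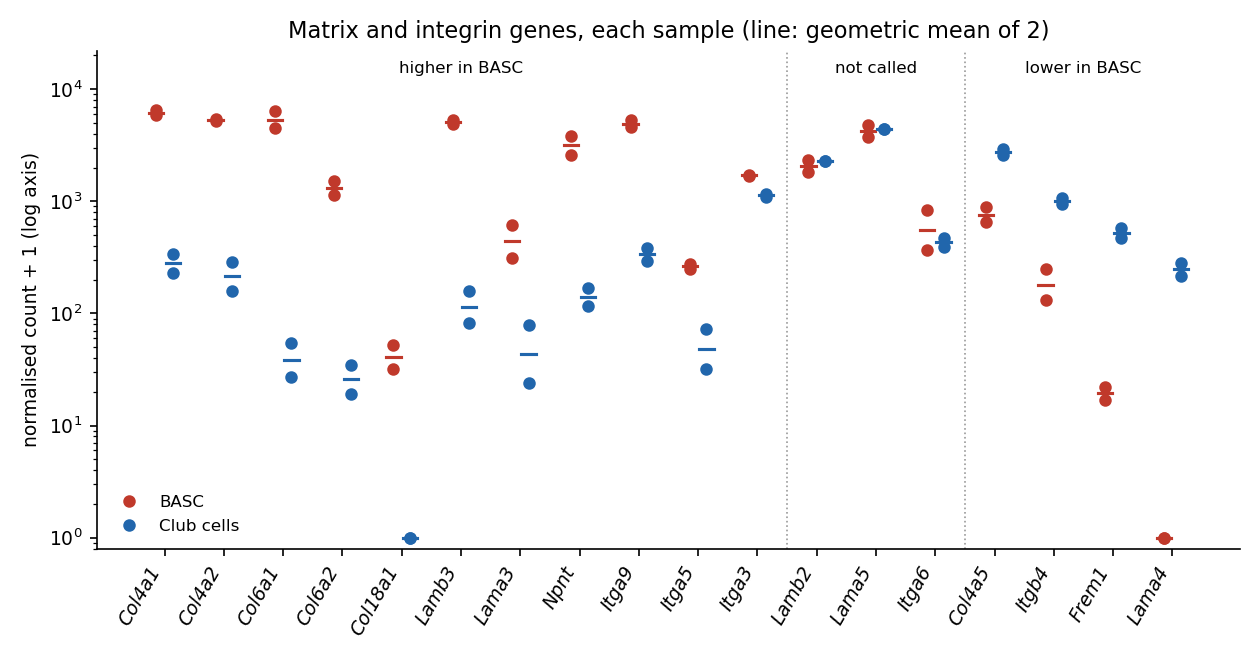
Normalised count + 1 (log axis) of matrix and integrin genes in each sample, BASC in red and Club cells in blue, with a line at the geometric mean of 2 samples. Both BASC points lie far above both Club points for Col4a1, Col4a2, Col6a1, Lamb3 and Itga9 and below them for Lama4, Frem1 and Itgb4, and the points overlap for Lama5, Lamb2 and Itga6.

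Guidance ligands and receptors, which steer growing axons and vessels and also act between epithelium and its surroundings, were split. Of 39 tested, 6 were higher and 7 lower, with a median of -0.12, or 0.03 after quantile normalization. Nrp1, neuropilin-1, a co-receptor for semaphorins and VEGF, was 3779 and 3750 against 106 and 109 (5.12 ± 0.20, 35.0-fold, adjusted p = 1.89e-05). Epha7, an ephrin receptor, was 462 and 667 against 15 and 25 (28.2-fold, adjusted p = 0.000236), and Slit3, a secreted repellent, was 185 and 224 against 0 and 0 (at least 73.2-fold higher, adjusted p = 0.00152). Ephb2, an ephrin receptor of the other subclass, had the reverse pattern, 0 in both BASC libraries and 217 and 100 in Club cells (at least 46.9-fold lower, adjusted p = 0.00641). These 4 genes kept their call. Sema3e, a secreted semaphorin, was 4.98-fold lower (173 and 358 against 1108 and 1536, adjusted p = 0.0237) and Ntn1, netrin-1, was 5 and 1 against 211 and 117 (adjusted p = 0.0101). Sema3e lost its call without any 1 of the 4 libraries (up to 0.308), and Ntn1 without BASC replicate 2 or either Club replicate (up to 0.193). Ror1, a receptor tyrosine kinase that binds Wnt5a, was 307 and 443 against 0 and 0 (at least 134-fold higher, adjusted p = 0.000209), and Adgrf5, an adhesion receptor with a known part in limiting the surfactant pool, was 20692 and 18639 against 3955 and 4749 (4.52-fold, adjusted p = 7.91e-05). Both kept their call.

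Ion transport genes, which set the balance of fluid secretion and absorption, differed in both directions. Of 27 epithelial ion channels and pumps, 4 were higher and 10 lower in BASC, with a median of -0.58. Cftr, the cyclic AMP-gated chloride channel, was 1513 and 1534 against 629 and 370 (3.05-fold, adjusted p = 0.0141), and Slc26a9, a chloride transporter, was 5722 and 5913 against 619 and 687 (3.15 ± 0.12, 8.91-fold, adjusted p = 1.52e-05). Kcne2, a potassium channel β subunit, was 1376 and 1549 against 21 and 29 (58.5-fold, adjusted p = 3.93e-05). The calcium-activated chloride channel Ano1 was lower, at 197 and 169 against 2634 and 2215 (-3.72 ± 0.21, adjusted p = 7.61e-05). The 3 subunits of the epithelial sodium channel were all lower, by unequal amounts. Scnn1g was 137 and 188 against 2550 and 2806 (16.5-fold, adjusted p = 0.000155), Scnn1b 618 and 821 against 5858 and 6075 (8.29-fold, adjusted p = 0.00028) and Scnn1a 5382 and 4696 against 7219 and 8445 (1.55-fold, adjusted p = 0.0217). Kcne3, another potassium channel β subunit, was 0 and 0 against 188 and 184 (at least 55.0-fold lower, adjusted p = 0.00459), and Clca1, a secreted regulator of chloride currents and a product of mucous cells, was 1 and 1 against 6830 and 10667 (adjusted p = 0.000333). Cftr and Scnn1a lost their call without any 1 of the 4 libraries (up to 0.179 and 0.203); the other genes of this paragraph kept theirs.

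The junction genes that seal the space between cells held 1 large difference towards BASC. Cldn18, the claudin of alveolar epithelium, was 6021 and 5777 against 158 and 183 (5.11 ± 0.14, 34.6-fold, adjusted p = 5.99e-06) and kept its call. Cldn4 (59 and 16 against 431 and 393, -3.69, adjusted p = 0.0288) and Cldn10 (113 and 373 against 1869 and 2173, 8.32-fold lower, adjusted p = 0.00967) had the opposite direction. They lost their call without either Club replicate, and Cldn4 also without BASC replicate 2 (up to 0.293 and 0.215). Across 25 claudins and junction proteins, 2 were higher and 4 lower, with a median of -0.55. Among the 266 solute carriers tested, 24 were higher (9.02%) and 20 lower (7.52%), shares close to those over all coding genes. Transporters of organic anions included strong differences both ways. Slco2a1, the prostaglandin transporter, was 2448 and 1906 against 208 and 306 (8.47-fold, adjusted p = 0.000211) and Slco4c1 was 4312 and 4821 against 1085 and 1241 (3.93-fold, adjusted p = 0.000188), whereas Slco1a5 was 0 and 0 against 303 and 265 (at least 84.0-fold lower, adjusted p = 0.00321). Slc16a11, a monocarboxylate transporter, was 8.86-fold lower (248 and 235 against 2373 and 1908, adjusted p = 0.000434), and Slc24a4, a sodium, calcium and potassium exchanger, 27.1-fold higher (1679 and 1567 against 31 and 89, adjusted p = 0.000572). All 5 kept their call. Slc2a3, the high-affinity glucose transporter GLUT3, was 494 and 349 in BASC, 3 and 0 in Club cells and 0 in both AT2 libraries (BASC against Club, adjusted p = 0.0065). It lost the call without BASC replicate 1 or Club replicate 2 (up to 0.0654).

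The regulators of lipid synthesis, as distinct from its enzymes, held more higher than lower calls. Of 21 genes for sterol-response factors, C/EBP factors and other lipid regulators, 8 were higher and 1 lower, with a median of 0.89. Srebf1 and Srebf2 encode the SREBP factors that switch on fatty acid and cholesterol genes. Srebf1 was 4941 and 3942 against 1464 and 1568 (2.93-fold, adjusted p = 0.00121), and Srebf2 was 4479 and 3856 against 2373 and 2071 (1.88-fold, adjusted p = 0.00526). Insig1, a classical SREBP target whose protein holds SREBP in the endoplasmic reticulum, was 3355 and 1988 against 1062 and 685 (3.06-fold, adjusted p = 0.0192). Mid1ip1, which promotes polymerisation of acetyl-CoA carboxylase, was 5163 and 3319 against 308 and 300 (adjusted p = 7.09e-05) and kept its call. The C/EBP factors were split. Cebpa, required for AT2 maturation, was 6057 and 5793 against 2296 and 2908 (2.28-fold higher, adjusted p = 0.00317), while Cebpb was 1316 and 1501 against 2788 and 2953 (2.04-fold lower, adjusted p = 0.00579). Insig1 lost its call without any 1 of the 6 libraries (up to 0.282), Srebf1 without either Club replicate (0.0688), Srebf2 and Cebpb without BASC replicate 1 or either Club replicate (0.0935 and 0.107), and Cebpa without either BASC replicate or Club replicate 1 (0.0754).

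The acyl-CoA synthetases, which activate fatty acids for use, were called in both directions within 1 family. Of 11 tested, 3 were higher and 5 lower, with a median of -1.04. Acsl4, which prefers arachidonate, was 13152 and 13699 against 3949 and 3915 (1.77 ± 0.09, 3.41-fold, adjusted p = 6.35e-05), and Acsl5 was 5016 and 4700 against 1861 and 1908 (2.58-fold, adjusted p = 0.00043). Acsl1 went the other way, at 259 and 286 against 2973 and 2744 (10.5-fold lower, adjusted p = 0.000113), as did the acetyl-CoA synthetase Acss1 at 2095 and 1925 against 4167 and 4118 (2.06-fold lower, adjusted p = 0.00203). Acsm1, a medium-chain member, was 7 and 55 against 1566 and 1375 (47.4-fold lower, adjusted p = 0.0135) and lost its call without either Club replicate (0.21); the other 4 kept theirs. Elovl1, an elongase of very long fatty acids, was 7682 and 5819 against 388 and 330 (4.22 ± 0.16, 18.8-fold, adjusted p = 1.74e-05) and kept its call. Phospholipid flippases were also split, 2 higher and 2 lower of 11. Atp8a1 was 29894 and 26467 against 7201 and 8661 (3.55-fold, adjusted p = 0.000186), and Atp10b was 0 and 0 against 375 and 188 (at least 83.2-fold lower, adjusted p = 0.00389), and both kept their call. Of 19 proton pump subunits, 4 were higher and 2 lower, and the 2 isoforms of the B subunit moved in opposite directions: Atp6v1b2, the common form, was 2717 and 2552 against 1137 and 803 (2.72-fold higher, adjusted p = 0.00345), while Atp6v1b1, the form of acid-secreting cells, was 0 and 16 against 914 and 687 (adjusted p = 0.0178). Atp6v1b2 lost its call without either BASC replicate (0.059) and Atp6v1b1 without either Club replicate (0.221). Rab27b, a GTPase of secretory granule docking, was 1751 and 1250 against 356 and 311 (4.50-fold, adjusted p = 0.000717) and kept its call.

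Among transcription factor families, the Iroquois homeobox genes were called in full. All 4 tested members were higher in BASC, with a median of 1.39. Irx1 was 6125 and 5604 against 792 and 699 (2.98 ± 0.14, 7.87-fold, adjusted p = 4.21e-05), Irx3 was 2607 and 2969 against 911 and 1000 (2.92-fold, adjusted p = 0.000552), Irx2 was 2555 and 3069 against 1303 and 1282 (2.18-fold, adjusted p = 0.00294) and Irx5 was 1821 and 1468 against 767 and 631 (2.35-fold, adjusted p = 0.0102). Irx1 and Irx3 kept their call, Irx2 lost it without either Club replicate (0.0767) and Irx5 without any 1 of the 4 libraries (0.171). The genes lie in 2 clusters, Irx1 and Irx2 on chromosome 13 and Irx3 and Irx5 on chromosome 8. Foxp1, a forkhead repressor of lung epithelium, was 2781 and 3363 against 1121 and 1035 (2.85-fold, adjusted p = 0.00103), lost without Club replicate 2 (0.0517). Foxc1 was 0 and 0 against 210 and 151 (at least 53.4-fold lower, adjusted p = 0.00552). Sox9, a factor of the embryonic distal tip and of airway glands and cartilage, was 0 and 0 against 111 and 143 (at least 37.5-fold lower, adjusted p = 0.00735); Foxc1 and Sox9 kept their call. Id2, an inhibitor of basic helix-loop-helix factors that marks the embryonic distal tip, was 1775 and 1408 against 533 and 530 (2.99-fold higher, adjusted p = 0.00133) and kept its call. Of 32 nuclear receptors and related ligand-activated factors, 1 was higher and 7 lower, with a median of -0.43. The glucocorticoid receptor Nr3c1 was 1774 and 1682 against 822 and 1048 (1.85-fold higher, adjusted p = 0.0151). Ahr, the aryl hydrocarbon receptor that senses planar aromatic chemicals, was 809 and 867 against 1912 and 1657 (2.13-fold lower, adjusted p = 0.00998), and Rxra, the common partner of many nuclear receptors, was 536 and 553 against 1085 and 1040 (1.95-fold lower, adjusted p = 0.0155). Ahr and Rxra lost their call without any 1 of the 4 libraries (up to 0.121), and Nr3c1 without either BASC replicate or Club replicate 1 (0.108).

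Immediate-early genes, which respond within minutes to growth factors and other stimuli, were higher in part. Of 25, 5 were higher and none lower, with a median of 0.53; without adjustment 14 higher and 2 lower had p under 0.05. Egr1 was 10021 and 9739 in BASC, 3984 and 4517 in Club cells (1.22 ± 0.11, 2.32-fold, adjusted p = 0.000668) and 4824 and 5121 in AT2 cells, and kept its call. Klf2 was 1786 and 2167 against 568 and 770 (2.95-fold, adjusted p = 0.00957), whereas Klf5, another member of the KLF family with a known part in the lung epithelium, was 1573 and 1448 against 3184 and 3281 (2.14-fold lower, adjusted p = 0.0102). Klf2 and Klf5 lost their call without any 1 of the 4 libraries (up to 0.189 and 0.176).

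Signals to immune cells were split. Of 20 chemokines, cytokines and alarmins, 5 were higher and 2 lower, with a median of 0.80. Csf2, which encodes GM-CSF, the growth factor on which alveolar macrophages depend, was 253 and 557 in BASC, 0 in both Club libraries (at least 145-fold higher, adjusted p = 0.00109) and 76 and 135 in AT2 cells. Cxcl15, lungkine, was 76341 and 70218 against 4875 and 7460 (3.60 ± 0.19, 11.9-fold, adjusted p = 6.31e-05). Cxcl17, a mucosal chemokine of the airway, had the reverse pattern, 123 and 134 against 2768 and 2449 (20.3-fold lower, adjusted p = 7.31e-05). All 3 kept their call. Of 32 cytokine receptors, 5 were higher and 5 lower. Il1r1, the interleukin-1 receptor, was 1352 and 1282 against 317 and 422 (3.56-fold higher, adjusted p = 0.0116), with 733 and 390 in AT2 cells. Il13ra1, a chain of the interleukin-13 and interleukin-4 receptor, was 571 and 540 against 2855 and 2292 (4.63-fold lower, adjusted p = 0.00123), and Il6st, the shared signal chain gp130, was 4314 and 4139 against 7551 and 8671 (1.92-fold lower, adjusted p = 0.00255). Lifr, a receptor that signals through gp130, was 3101 and 3718 against 1088 and 1572 (2.56-fold higher, adjusted p = 0.00516). Il6st kept its call, Il1r1 lost it without any 1 of the 4 libraries (0.218), Il13ra1 without Club replicate 1 (0.0605) and Lifr without either BASC replicate or Club replicate 1 (0.0736). Of 18 complement genes, 3 were higher and 3 lower. Hc, which encodes complement C5 and is also an AT2 marker here, was higher, at 74011 and 74648 against 396 and 445 (limma adjusted p = 6.16e-08). C3, the central component, was 5573 and 5692 against 28793 and 29212 (-2.36 ± 0.09, 5.15-fold lower, adjusted p = 1.74e-05) and kept its call, while C6, a part of the membrane attack complex, was 2875 and 2432 against 1228 and 1327 (2.08-fold higher, adjusted p = 0.00366), lost without either Club replicate (0.0756).

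Markers of multiciliated and goblet cells were higher in the Club libraries and moved with the defence, detoxification, interferon and keratin genes described next. Neuroendocrine and tuft markers had the other direction. Of 4 tested, 1 was higher in BASC, Dclk1 (271 and 268 against 111 and 117), and none lower. The sum of the 10 such markers in the table was 380 and 479 against 219 and 256. The summed level of 26 multiciliated markers was 3679 and 3787 against 17266 and 16951, with 11 of 26 called lower and none higher and Sntn at 0 in both BASC libraries; Foxj1, the master factor of motile cilia, was 115 and 100 against 795 and 825. The sum of the 9 goblet markers in the table was 2144 and 2328 against 87259 and 82751, with 6 of 9 lower and Agr2 and Tff2 at 0 in both BASC libraries. The sum of 11 fibroblast and smooth muscle markers was 72 and 72 against 1496 and 1652, nearly all of it from Fn1 (8 and 28 against 1431 and 1508). Of 6 basal markers the sum was 871 and 370 against 1120 and 966, most of it from Itga6 (828 and 370 against 393 and 470) and, in the Club libraries, Pdpn (0 and 0 against 561 and 457), which other epithelial cells express as well, with Krt5 at 0 and 0 against 25 and 0 and Trp63 at 0 and 0 against 18 and 8. Of 6 tested endothelial markers, 4 had a positive and 2 a negative difference, with a median of 1.37, and 1 was called in each direction. Esam was higher, at 677 and 419 against 2 and 3. Kdr was lower, at 689 and 517 in the BASC libraries and 5510 and 5892 in the Club libraries. In AT2 cells Kdr was 1 and 0. Pecam1, the CD31 gene, was 9 and 15 against 3 and 6. Of 9 immune markers in the table the sum was 255164 and 263341 against 3399 and 2244, nearly all of it Lyz2, which AT2 cells express as well. The part of these cell types in the results was not tested.

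Secreted defence proteins fell into 2 sets. Of 21 tested, 6 were higher and 12 lower in BASC, with a median of -1.90. Among the higher, Lyz2, lysozyme of AT2 cells and macrophages, was 254508 and 262419 against 2179 and 990 (7.46 ± 0.31, 163-fold, adjusted p = 2.33e-05), Lcn2, which binds bacterial siderophores, was 2528 and 2953 against 492 and 413 (6.06-fold, adjusted p = 0.000102), and Chil1, a chitinase-like protein, was 26640 and 23000 against 2901 and 3654 (7.57-fold, adjusted p = 4.01e-05). Among the lower, Pigr, which carries secretory IgA across the epithelium, was 260 and 395 against 14448 and 14409 (-5.49 ± 0.27, 44.1-fold, adjusted p = 4.77e-05), Tff2, a trefoil peptide of mucous secretions, was 0 and 0 against 1150 and 1390 (at least 375-fold, adjusted p = 0.000997), and Chil4 was 0 and 0 against 109 and 141 (at least 37.0-fold, adjusted p = 0.00642). These 6 genes kept their call. Chil1 and Chil4 are members of 1 chitinase-like family with opposite directions. Several airway products spread widely between replicates, not all in the same order. In BASC the secretoglobin Scgb3a1 was 222 and 47, but Scgb3a2 was 510 and 1175. Bpifa1, an abundant lipid-binding protein of the upper airway, was 480 and 21 against 64511 and 25250 (179-fold lower, adjusted p = 0.00741), Ltf, lactoferrin, was 40 and 0 against 11097 and 4665 (394-fold lower, adjusted p = 0.00933), and Reg3g, an antibacterial lectin, was 33 and 0 against 4930 and 3746 (263-fold lower, adjusted p = 0.0116). These 3 lost their call without either Club replicate (up to 0.237), and in BASC replicate 1 each stood above replicate 2.

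Mucins and the enzymes that glycosylate them were lower in part. Of 8 mucin genes, 4 were lower and none higher, with a median of -2.16. Muc16, a cell-surface mucin, was 1 and 0 against 2427 and 801 (adjusted p = 0.00158) and kept its call, and the gel-forming mucin Muc5ac was 25 and 40 against 1370 and 1665 (46.7-fold, adjusted p = 0.00476), lost without either Club replicate (0.109). Of 22 genes of O-linked glycan synthesis, 3 were higher and 5 lower. Galnt6, which starts O-glycans, was 0 and 0 against 125 and 116 (at least 35.6-fold lower, adjusted p = 0.00647). The higher genes included 2 sialyltransferases: St6galnac2 was 1235 and 1569 against 40 and 9 (57.2-fold, adjusted p = 0.00116) and St3gal1 was 2229 and 1980 against 592 and 695 (3.27-fold, adjusted p = 0.000535). Galnt6 and both sialyltransferase genes kept their call. The largest differences towards Club cells outside these lists included genes listed at or near 0 in BASC. Sult1d1, a sulfotransferase, was 0 and 0 against 2206 and 933 (at least 464-fold, adjusted p = 0.00123). Fer1l6, of the ferlin family of membrane-fusion proteins, was 0 and 0 against 1353 and 1336 (at least 397-fold, adjusted p = 0.00094). Vtcn1, an inhibitory ligand of T cells, was 0 and 0 against 907 and 794 (at least 251-fold, adjusted p = 0.00136). Pdpn, podoplanin, widely used as an alveolar type 1 marker, was 0 and 0 against 561 and 457 (adjusted p = 0.00178), with 6 and 17 in AT2 cells. All 4 kept their call. Another alveolar type 1 marker, Ager, was higher in BASC, at 8336 and 8746 against 1390 and 1762; of 17 such markers 4 were higher and 3 lower.

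The detoxification families held more lower than higher calls. Of 19 glutathione transferases, none was higher and 9 were lower, with a median of -1.79 (-1.77 with genes at 0 set to their bound); 2 higher and 11 lower had an unadjusted p under 0.05. Gsto1, the omega-class transferase, was 186 and 224 against 6693 and 5509 (29.8-fold, adjusted p = 0.00345) and Gstm1 was 1015 and 1077 against 5315 and 6100 (5.46-fold, adjusted p = 0.000694). Of 17 aldehyde dehydrogenases, 1 was higher and 6 lower. Aldh1a1, which oxidises retinal to retinoic acid, was 675 and 1027 against 52198 and 46721 (-5.89 ± 0.42, 58.1-fold, adjusted p = 0.000209), and the mitochondrial Aldh2 was 4907 and 5573 against 14296 and 15094 (2.80-fold, adjusted p = 0.000253); both kept their call. Aldh9a1, which makes γ-aminobutyric acid and carnitine precursors, was the member that was higher, at 786 and 739 against 257 and 281 (adjusted p = 0.00479). Of 29 cytochrome P450 genes, 2 were higher and 8 lower, with a median of -0.95. In glutathione and thioredoxin metabolism, 1 of 26 was higher and 6 lower, and the higher gene was Gclc, the catalytic subunit of the first step of glutathione synthesis (6535 and 5844 against 2307 and 2877, 2.39-fold, adjusted p = 0.00464). Gsto1 and Gclc lost their call without any 1 of the 4 libraries (up to 0.165 and 0.135), Gstm1 without either Club replicate (0.0602), and Aldh9a1 without BASC replicate 1 or either Club replicate (0.0755).

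Interferon-response genes, which cells switch on when they sense virus or interferon, were lower in BASC where they differed. Of 35 tested, none was higher and 7 lower, with a median of -1.64; none was higher and 16 were lower at an unadjusted p under 0.05. Ifit1, which binds viral RNA lacking a proper cap, was 0 and 0 against 110 and 143 (at least 37.4-fold, limma adjusted p = 0.00639), and Ifitm1, a membrane protein that blocks viral entry, was 0 and 0 against 211 and 161 (at least 55.0-fold, adjusted p = 0.00528). Both kept their call. The oligoadenylate synthetase genes Oas1a (4 and 0 against 118 and 110, adjusted p = 0.026), Oas2 (0 and 0 against 42 and 52, at least 13.9-fold, adjusted p = 0.0157) and Oasl1 (0 and 0 against 44 and 30, at least 10.9-fold, adjusted p = 0.0203) belong to a family of sensors of double-stranded RNA. Ifi44 was 0 and 0 against 45 and 52 (adjusted p = 0.0152). Isg20, a nuclease, was 244 and 237 against 528 and 545 (2.23-fold lower, adjusted p = 0.025). Irf7, a factor that drives interferon genes, was not called, at 117 and 113 against 211 and 194 (adjusted p = 0.223). AT2 cells had 0 in both libraries for Ifit1, Oas1a, Oas2, Oasl1 and Ifi44. Oas1a lost its call without BASC replicate 2 or either Club replicate (up to 0.148), Isg20 without any 1 of the 4 libraries (0.138), and Oas2, Oasl1 and Ifi44 without either BASC replicate (up to 0.0658).

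Promoters of interferon-response genes are known for a doubled GAAA element bound by the ISGF3 and IRF factors. It was searched as GAAA, any 2 bases, then GAAA again, on both strands of the RefSeq (GRCm38.p6) windows from 250 bases before to 50 bases after each start. It was present in 3.44% of all 32851 windows and in 3.99% of 27025 genes. Of the 28 tested list members with a window, 15 (53.6%) held it, and of the 6 called members with a window, 2 did, Ifit1 and Oas1a. These 2 windows are shown on their genes' own strand with every match in capitals (Ifit1 chr19:34640639-34640938, plus strand; Oas1a chr5:120907476-120907775, minus strand).
Ifit1 promoter: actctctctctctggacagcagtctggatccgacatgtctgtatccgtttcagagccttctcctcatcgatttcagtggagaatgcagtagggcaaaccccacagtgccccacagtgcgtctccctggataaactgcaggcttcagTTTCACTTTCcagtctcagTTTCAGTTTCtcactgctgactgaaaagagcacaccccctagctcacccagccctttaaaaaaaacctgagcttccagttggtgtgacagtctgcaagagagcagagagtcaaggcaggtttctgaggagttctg
Oas1a promoter: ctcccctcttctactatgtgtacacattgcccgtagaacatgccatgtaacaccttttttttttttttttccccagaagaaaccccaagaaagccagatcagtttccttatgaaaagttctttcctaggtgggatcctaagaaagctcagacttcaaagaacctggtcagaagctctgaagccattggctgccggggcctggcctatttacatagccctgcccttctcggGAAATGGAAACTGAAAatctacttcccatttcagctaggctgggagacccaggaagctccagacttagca
A match describes the letters in the window, not a site used in these cells.

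Keratins, the intermediate filaments of the epithelium, were lower where they were called. Of 11 keratins, 5 were lower and none higher, with a median of -0.95 and 7 lower at an unadjusted p under 0.05. Krt19 was 845 and 784 against 5234 and 4575 (-2.59 ± 0.21, 6.02-fold, adjusted p = 0.00043) and kept its call. The simple-epithelium keratins Krt8 (1972 and 2574 against 4551 and 4158, 1.92-fold, adjusted p = 0.0174), Krt18 (2685 and 2844 against 5015 and 4293, 1.68-fold, adjusted p = 0.0117) and Krt7 (1196 and 1256 against 2074 and 2029, 1.67-fold, adjusted p = 0.015) differed by less and lost their call without any 1 of the 4 libraries (up to 0.247). Of 7 S100 calcium-binding proteins, 1 was higher and 3 lower. S100a10 was 308 and 356 against 40 and 18 (adjusted p = 0.00364), while S100a6 was 55 and 82 against 599 and 399 (7.29-fold lower, adjusted p = 0.0135). Annexin A2, the partner of S100a10, had the opposite sign: Anxa2 was 2277 and 2092 against 3665 and 3193 (1.57-fold lower, adjusted p = 0.0286), and Anxa6 was 2831 and 2688 against 1195 and 1132 (2.37-fold higher, adjusted p = 0.00114). Anxa6 kept its call, S100a10 lost it without either BASC replicate or Club replicate 2 (0.0588), and S100a6 and Anxa2 without any 1 of the 4 libraries (0.225 and 0.232). Of 15 axonemal dyneins, the motors of motile cilia, 8 were lower and none higher, with a median of -4.10, the direction of the multiciliated markers given above. In BASC, Dnah5 was 169 and 14, Dnah9 91 and 51 and Dnah11 24 and 41, low and spread between replicates. Their Club values were 2147 and 2110, 1635 and 1427, and 1189 and 1031.

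Several large groups held few calls. None of 33 genes of the ER and Golgi secretory path was called, with 4 higher and 8 lower at an unadjusted p under 0.05. Of 34 nuclear-encoded respiratory chain genes, 1 was called, Cox4i1 (859 and 782 against 1477 and 1361, 1.73-fold lower, adjusted p = 0.0227). Of 75 ribosomal proteins, 1 was called, Rps19 (2000 and 2053 against 1255 and 1271, 1.61-fold higher, adjusted p = 0.0158). Both lost that call without any 1 of the 4 libraries (up to 0.176). Of 332 zinc finger proteins of the Zfp stem, 7 were higher (2.11%) and 3 lower (0.904%), shares below those over all tested genes. Some lists not described here held larger shares of calls. Lysosomal hydrolases had 6 higher and 1 lower of 29, and G protein-coupled receptors of epithelium 3 higher and 6 lower of 26. The cell cycle, hedgehog and Hippo lists held calls at shares near those over all tested genes or were too short to set against them. Of 36 cell cycle genes, 2 were higher (5.56%) and 1 lower (2.78%). None of 9 hedgehog pathway genes passed, and none did at an unadjusted p under 0.05. Of 22 Hippo pathway genes 1 was called (4.55%), Frmd6, an upstream scaffold, at 856 and 723 against 170 and 126 (5.33-fold higher, adjusted p = 0.000974), which kept its call.

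**Figure D3:**
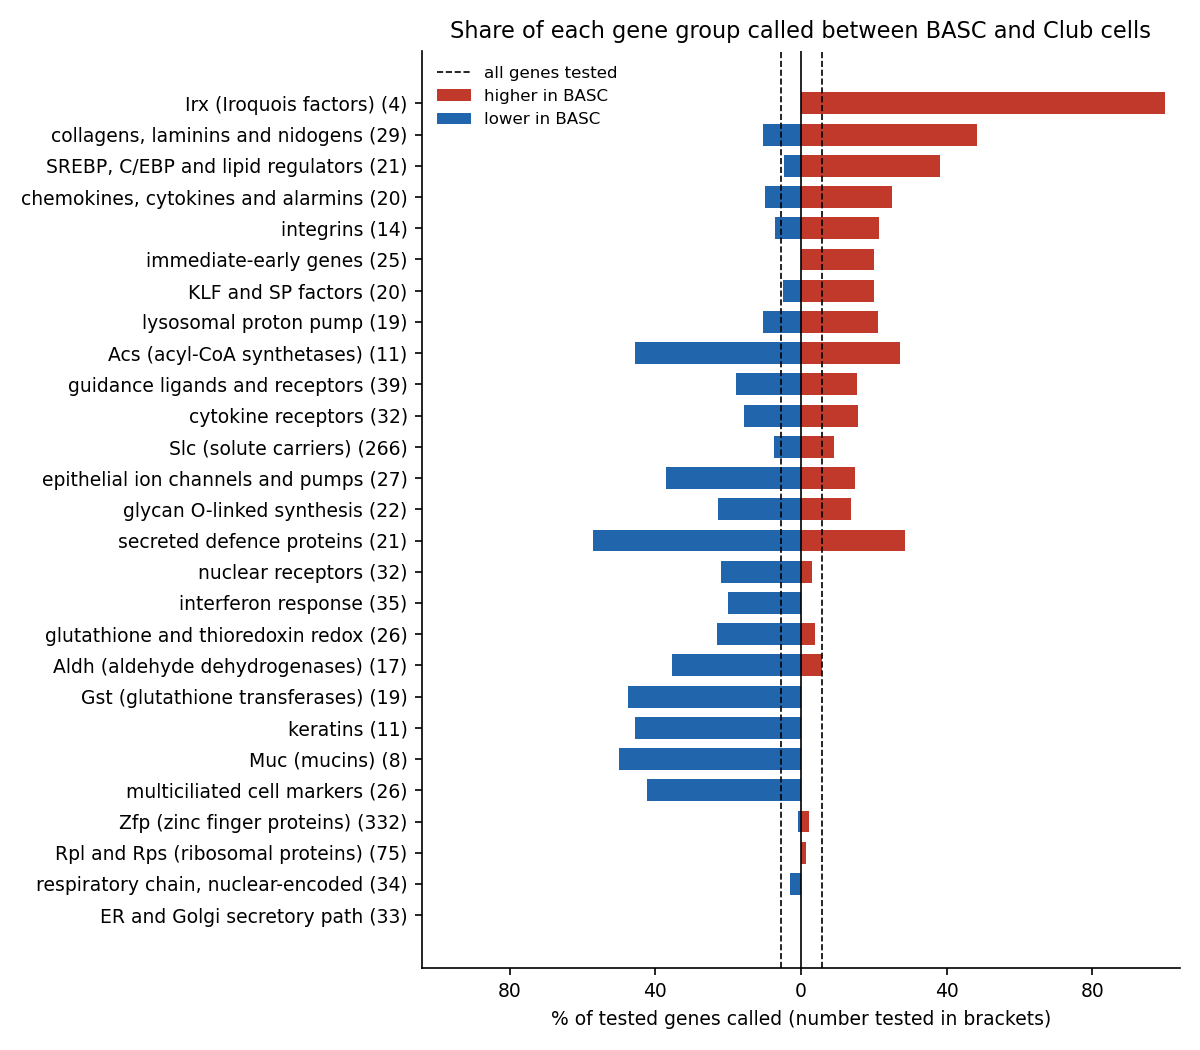
Share of tested members called higher (right) or lower (left) in BASC for gene lists and families, with the number of tested genes in brackets. The matrix list reaches 48.3% higher, glutathione transferases 47.4% lower and the ER and Golgi list 0.0% in either direction; the dashed lines mark the shares over all tested genes, 5.77% and 5.42%.

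Non-coding genes were called in both directions. Of 2942 long non-coding genes tested, 82 (2.79%) were higher and 92 (3.13%) lower, with a median of -0.10. By type, 26 long intergenic RNAs were higher and 11 lower of 553, 23 antisense RNAs were higher and 27 lower of 805, and of 1106 genes that the annotation marks TEC, a class of transcripts still to be tested experimentally, 27 were higher and 42 lower. The calls rest on low values: 5 of the 82 and 6 of the 92 passed in all 6 fits that leave out 1 library, and without a BASC or Club library the higher calls fell to between 8 and 14. Among those that kept their call, Gm45496 on chromosome 8 was 185 and 169 against 0 and 0 (at least 63.4-fold higher, adjusted p = 0.00165), and Gm33248 on chromosome 7 was 279 and 250 against 3 and 0 (adjusted p = 0.00166). Gm6166 on chromosome 9, annotated as a processed pseudogene and so not among the 82, was 782 and 283 against 0 and 1 (adjusted p = 0.00043) and kept its call. Towards Club cells, 2900064K03Rik on chromosome 5 was 0 and 0 against 283 and 257 (at least 79.8-fold, adjusted p = 0.00335), and AW112010 on chromosome 19 was 0 and 0 against 200 and 262 (at least 68.3-fold, adjusted p = 0.00391). Of 504 small non-coding genes, 6 were called, 3 in each direction, and 20 higher and 9 lower had an unadjusted p under 0.05. None of 203 small nucleolar RNAs was called, with 4 higher and 2 lower at an unadjusted p under 0.05.

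On a list of long non-coding RNAs with a curated name, the calls were in 1 direction only. Of 37 tested, 3 were higher (8.11%) and none lower, with a median of 0.19. Among all genes typed long non-coding 2.79% were higher, a class that leaves out Snhg11. At an unadjusted p under 0.05, 8 list members were higher and 3 lower. The list is not complete: Grip1os1 and Grip1os2, antisense genes with curated names outside it, were called lower. Snhg11, a small nucleolar RNA host gene that the deposited annotation types as protein coding, was 1691 and 1490 against 1 and 4 (8.97 ± 0.45, adjusted p = 4.69e-05), with 2670 and 2563 in AT2 cells, and kept its call. Malat1, the nuclear speckle RNA, was 403397 and 369224 against 242364 and 236412 (0.69 ± 0.12, 1.61-fold, adjusted p = 0.0142), while Neat1, the paraspeckle RNA, overlapped at 25530 and 20735 against 33649 and 26157 (adjusted p = 0.306). Mir17hg, at 115042879 to 115046727 on the plus strand of chromosome 14, is the host transcript of the miR-17-92 cluster and was 213 and 205 against 53 and 19 (2.68 ± 0.60, 5.81-fold, adjusted p = 0.0313), with 246 and 149 in AT2 cells. Malat1 lost its call without any 1 of the 4 libraries (up to 0.406) and Mir17hg without any 1 of the 6 (up to 0.178). The host gene gives rise to 6 hairpins with 11 mature miRNAs in RefSeq (GRCm38.p6). The main products are shown because they fall into 4 seed groups, with the seed (bases 2 to 8) in capitals; the mature miRNAs themselves were not measured here.
miR-17-5p: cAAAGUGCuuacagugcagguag
miR-20a-5p: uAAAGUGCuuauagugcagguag
miR-18a-5p: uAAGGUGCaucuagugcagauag
miR-19a-3p: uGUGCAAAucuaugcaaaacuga
miR-19b-3p: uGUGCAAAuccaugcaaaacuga
miR-92a-3p: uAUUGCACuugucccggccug
miR-17-5p and miR-20a-5p share a seed, as do miR-19a-3p and miR-19b-3p, whereas the seeds of miR-18a-5p and miR-92a-3p each stand alone in this set.

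Several called non-coding RNAs lay beside a called transcription factor or secreted-protein gene. Nkx2-1, the master regulator of lung epithelium, was 6583 and 6450 against 2887 and 2864 (2.27-fold, adjusted p = 0.000656). Within 300 kb of it, 3 of 10 tested non-coding genes were higher and none lower. AC154734.1, which starts just beyond the 3′ end of Nkx2-1, was 4571 and 4609 against 2639 and 2402 (1.82-fold, adjusted p = 0.00391). AC114575.1 was 410 and 389 against 58 and 104 (4.93-fold, adjusted p = 0.00808). Gm26973, on the opposite strand at 56537416 to 56607476 of chromosome 12, was 221 and 147 against 28 and 28 (6.57-fold, adjusted p = 0.0314). The coding neighbours went both ways: Mbip was 1224 and 1329 against 469 and 540 (2.53-fold higher, adjusted p = 0.00504) and Pax9 was 0 and 0 against 162 and 67 (at least 33.9-fold lower, adjusted p = 0.0105). Nkx2-1 kept its call. Gm26973 and Mbip lost it without any 1 of the 4 libraries (up to 0.221 and 0.104), AC154734.1 without Club replicate 2 (0.0648), AC114575.1 without either BASC replicate or Club replicate 1 (0.07), and Pax9 without either BASC replicate (0.0563). The RefSeq windows of Nkx2-1 and Gm26973 run in opposite directions and have 219 bases in common, shown in capitals (Nkx2-1 chr12:56536859-56537158, minus strand; Gm26973 chr12:56536940-56537239, plus strand). RefSeq starts Gm26973 closer to Nkx2-1 than the deposited coordinates do.
Nkx2-1 promoter: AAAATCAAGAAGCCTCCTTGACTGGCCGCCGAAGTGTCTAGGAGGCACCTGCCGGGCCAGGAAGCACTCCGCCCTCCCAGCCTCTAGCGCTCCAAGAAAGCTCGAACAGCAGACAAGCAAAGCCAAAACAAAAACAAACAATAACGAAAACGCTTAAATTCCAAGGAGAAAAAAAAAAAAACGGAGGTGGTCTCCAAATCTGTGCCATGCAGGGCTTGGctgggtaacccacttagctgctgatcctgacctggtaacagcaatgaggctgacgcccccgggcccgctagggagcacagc
Gm26973 promoter: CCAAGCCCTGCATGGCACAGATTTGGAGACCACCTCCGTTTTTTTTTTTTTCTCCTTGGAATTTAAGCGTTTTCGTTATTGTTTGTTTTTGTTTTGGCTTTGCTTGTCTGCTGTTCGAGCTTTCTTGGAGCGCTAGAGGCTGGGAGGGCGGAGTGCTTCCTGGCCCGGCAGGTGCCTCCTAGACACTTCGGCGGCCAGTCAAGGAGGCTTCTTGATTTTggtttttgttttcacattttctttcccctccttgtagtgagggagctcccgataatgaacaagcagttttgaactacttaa
Both members of this head-to-head pair were higher in BASC.

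The Iroquois cluster on chromosome 8 and the Cxcl15 and Ctsc genes had like neighbours. Within 600 kb of Irx3, 5 of 14 tested non-coding genes were higher and none lower. They were Irx3os, which overlaps Irx3 on the other strand (289 and 337 against 105 and 62, 3.75-fold, adjusted p = 0.049), Crnde (502 and 510 against 163 and 55, 4.64-fold, adjusted p = 0.0228), Gm21817 (210 and 103 against 22 and 20, 7.45-fold, adjusted p = 0.0237), Gm36380 (46 and 41 against 0 and 0, at least 15.6-fold, adjusted p = 0.0179) and Gm45332 (139 and 202 against 0 and 0, at least 61.0-fold, adjusted p = 0.00112). Gm45332 kept its call. The other 4 lost it without either BASC replicate, among other libraries, with adjusted p up to 0.381. Beside Cxcl15 on chromosome 5, Gm43085, which begins less than 1 kb after its end on the same strand, was 11820 and 11471 against 323 and 736 (4.57 ± 0.33, adjusted p = 0.000226) and kept its call. Ctsc encodes cathepsin C, which activates granule proteases, and was 9485 and 7888 against 1259 and 1191 (7.09-fold, adjusted p = 7.31e-05). Gm44751, which follows it on the same strand, was 766 and 1141 against 79 and 115 (9.83-fold, adjusted p = 0.000694), and both kept their call. Gm26522, antisense to Ctsc, was 518 and 493 against 58 and 99 (6.44-fold, adjusted p = 0.00315) and lost its call without either BASC replicate (0.0518). Transcripts that follow a gene on its own strand may hold reads that ran past its annotated end, and whether they are separate RNAs cannot be told apart here.

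Where a called non-coding gene overlapped a coding gene, the 2 were never called in opposite directions. Of 82 higher long non-coding genes, 42 overlapped a coding gene, and in 32 of these the coding gene was higher too; of 92 lower ones, 73 overlapped and in 28 the coding gene was lower. Split by strand, 14 of 16 higher non-coding genes on the strand of their host had a host called higher (87.5%), as did 18 of 26 on the opposite strand (69.2%). For lower non-coding genes the shares were 15 of 38 (39.5%) and 13 of 36 (36.1%). Among non-coding genes that were not called but had a positive difference, the host was called higher for 24.4% of 393 on the same strand and for 19.3% of 518 on the opposite strand. Among those with a negative difference, the host was called lower for 13.6% of 462 and 10.7% of 599. Gm13449 is antisense within Hc, the complement C5 gene, and was 220 and 145 against 0 and 9 (40.6-fold, adjusted p = 0.0153); it lost its call without either BASC or either AT2 library (up to 0.116). The strand setting of the counting is not given in the sources used here, so reads of overlapping genes cannot be told apart, and several non-coding genes share 1 host.

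**Figure D4:**
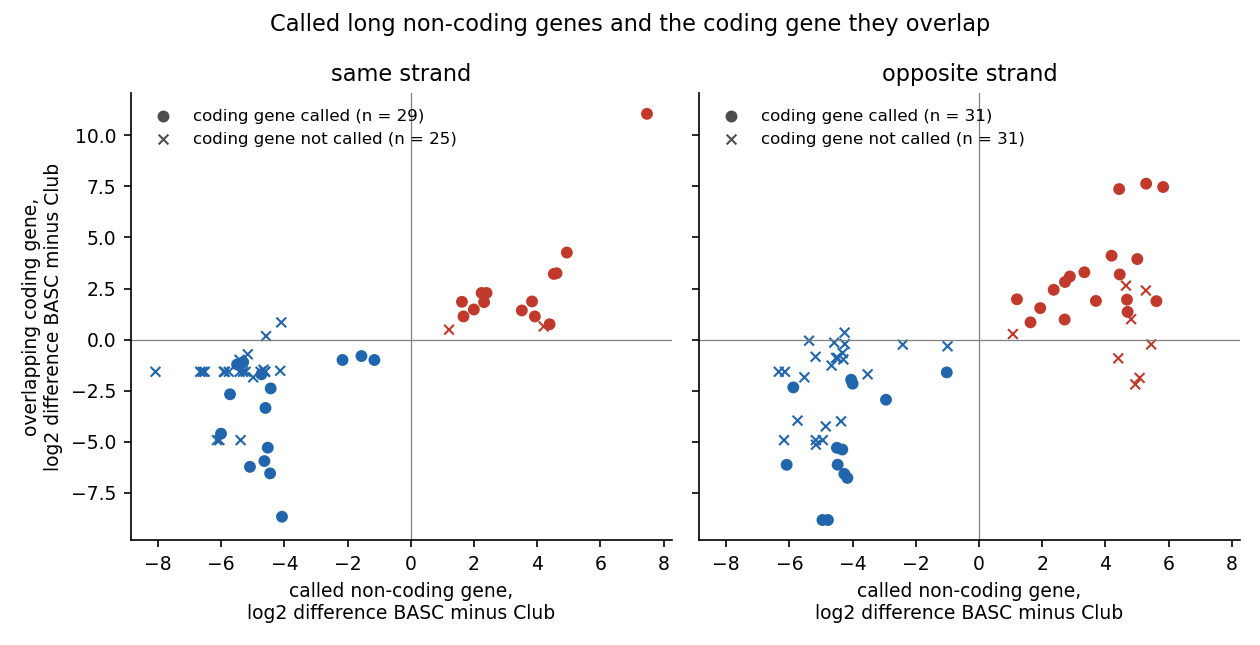
Log2 difference, BASC minus Club, of each called long non-coding gene (x axis) and of the coding gene it overlaps (y axis), with pairs on the same strand in the left panel and on opposite strands in the right. Dots mark coding genes that were called and crosses those that were not; all dots lie to the upper right (red) or lower left (blue) of the 0 lines.

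No pair of coding genes that lie head to head was called in opposite directions, but few pairs had both members called. Over all coding genes 6.92% were higher and 6.37% lower, so opposite calls would be rare in any case. Whether such pairs move together was not tested. Of 565 tested pairs of coding genes whose RefSeq promoter windows overlap on opposite strands, 56 had 1 member called and 7 had both, 5 of them higher and 2 lower. Of 164 such pairs with a non-coding member, 19 had 1 member called and 2 had both, which were higher, Nkx2-1 with Gm26973 among them. Exosc7, a subunit of the RNA exosome, was 1667 and 1787 against 189 and 208 (3.12 ± 0.20, 8.70-fold, adjusted p = 0.000116), and its partner Zdhhc3, a palmitoyltransferase of the Golgi, was 5495 and 5294 against 957 and 989 (2.47 ± 0.12, 5.54-fold, adjusted p = 4.01e-05). Both kept their call. Tmem176a (825 and 1048 against 3016 and 2817, 3.11-fold, adjusted p = 0.00111) and Tmem176b (2993 and 2810 against 5262 and 4313, 1.65-fold, adjusted p = 0.0208), related membrane proteins, were both lower. Tmem176a lost its call without Club replicate 1 (0.0507) and Tmem176b without any 1 of the 4 libraries (0.177).

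Part of the non-coding calls towards Club cells lay inside 2 long genes. Kcnip4, which encodes a potassium channel-interacting protein, spans 1135.4 kb of chromosome 5 (48389502 to 49524907, minus strand), and 24 of the 28 annotated genes inside it were tested. Of these, 16 were lower in BASC and none higher; 15 of the 16 are TEC transcripts, 13 lie on the strand of Kcnip4, and none overlaps its exons. Their summed values with the uncalled ones were 59 and 147 in BASC, 1770 and 1426 in Club cells, and 1 and 3 in AT2 cells, and 15 of the 16 were at 0 in both BASC libraries. Kcnip4 itself, counted over its exons, was 35 and 133 against 209 and 202 (-1.57, adjusted p = 0.323) and was not called. Grip1, a scaffold of 633.4 kb on chromosome 10 (119453830 to 120087261, plus strand), showed a like pattern: 6 of 7 tested genes inside it were lower, 3 of them on its strand and 1, the antisense Grip1os1, overlapping an exon of Grip1, with sums of 8 and 18 against 854 and 629, while Grip1 was 54 and 4 against 535 and 466 (-4.92, adjusted p = 0.0574). Without these 2 loci, 15 of 22 lower non-coding genes on the strand of their host had a host called lower (68.2%). Both loci were picked out after their values were seen, and the genes inside 1 host are not independent measurements.

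**Figure D5:**
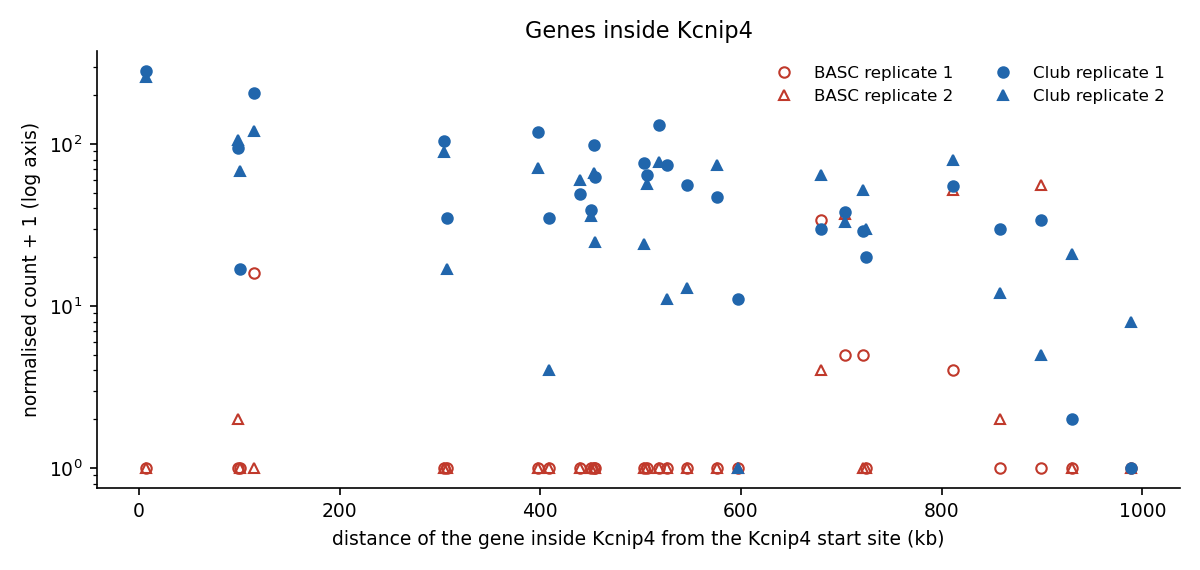
Normalised count + 1 (log axis) of each annotated gene inside Kcnip4 in the 2 BASC and the 2 Club samples, by its distance in kb from the Kcnip4 start site. The Club points lie above the BASC points over most of the gene, and 15 of the 16 genes called lower sit at 0 counts in both BASC samples.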

How the data were processed

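RNA of sorted cells was sequenced in bulk from 100 pg of total RNA with a stranded total RNA kit, per the labels' protocols. Per the submitters' processing notes, the tools were FastQC for read quality, STAR 2.4.0a for alignment and featureCounts 1.4.5-p1 (Subread) for counting, and the genome was mm10 (GRCm38). The values the authors deposited are a signal: gene-level read counts, scaled by a factor for each sample and then rounded, as read from the spacing of the values. How that factor was computed is not given in the sources used here, nor are the strand setting and the annotation release. Whole reads could not be recovered throughout, so no count model was run. The lowest maximum of any gene was 7, so the table leaves out genes below that in all samples. All 6 columns were mapped to samples, and 13 symbols stand on more than 1 gene.

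Values were analysed as log2(value + 1) where a gene reached 10 in 2 or more samples. Group means of the 6 samples were fitted with limma 3.58.1 (R 4.3.3, eBayes with a trend), with 2-sided p-values adjusted over all genes by the Benjamini-Hochberg method and a threshold of 0.05. Tables and figures were made in Python 3.11.15. The fit was tested on simulated data of this design and size (17721 genes), where it recovered 7.6% of genes changed by 2-fold, 38.8% by 4-fold and 68.7% by 16-fold, and called 2 unchanged genes. Only 66, 67 and 67 genes were changed by these folds, all at a level above 50 and with normal errors on the log2 scale. The data gave 1983 calls, and the adjustment depends on the share of changed genes, so recovery in the data may differ. A fold against a group listed at 0 is a lower bound computed from 3 reads per library averaged over the group, and no fold is given where that group lies at 1 to 3 counts. Of 1203 genes on 49 lists, 957 were tested, and 50 families were formed from symbols; lists are described by counts and medians, with no set test. The members and lists were chosen with earlier results of these data known. Genes were named by rule: up to 15 coding genes per direction with the largest change and a mean of at least 100, up to 5 called members per direction of each list and family, up to 12 non-coding genes per direction with a mean of at least 50, the 6 most abundant calls per direction, marker genes, and uncalled members for contrast. Chosen after their values were seen were Col4a1, Col18a1, Hspg2, Lama3, Srebf2, Cebpa, Pigr, Chil4, Ano1, Scnn1a, Scnn1b, Slc16a11, Rxra, Oas2, Oasl1, Ifi44, Nkx2-1, Mbip, Pax9, other genes near Nkx2-1, Irx3, Cxcl15 and Ctsc, the head-to-head pairs and the genes inside Kcnip4 and Grip1. Coordinates are those deposited, and promoter and miRNA sequences are those of RefSeq for GRCm38.p6. Other pseudocounts, filters, scalings and variance models, a fit of the 4 samples alone, a replicate block and fits without each library were tried.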

Additional observations from a re-analysis of the deposited data

How the results depend on the processing

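No called gene changed sign under any alternative except Gm26917, an rRNA-like gene, at 0.45 in the fit described and -0.45 after quantile normalization (limma adjusted p = 0.0341). Of the 352 genes named by rule, 344 were still called with total-sum scaling, 346 with quantile normalization, 313 in a fit of the 4 samples alone and 192 with eBayes without a trend. The median of all genes was -0.10, and 0.01 after quantile normalization. Without the trend, 499 genes were higher in place of 1022, and a gap of 4-fold in place of 2-fold left 403 higher genes in place of 693. Lower long non-coding genes numbered 92, but 54 with no filter, 41 with a filter of 50, 61 with quantile normalization and 38 with robust eBayes; higher ones numbered 82, but 50 in the fit of the 4 samples alone. The 6 small non-coding calls became 3 with a pseudocount of 5 or 20, 2 with no filter or robust eBayes and 1 with a filter of 50. The cause of these shifts was not tested. With the replicate number as a replicate block, 1004 genes were higher, 857 lower and 51 long non-coding genes lower; samples share only a number, and the deviations of the replicate 1 samples correlated at 0.0085.

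Leaving out 1 library at a time gave between 361 and 834 higher and 340 and 908 lower genes, between 350 and 594 higher and 334 and 754 lower genes with the 2-fold gap, between 8 and 55 higher and 11 and 72 lower long non-coding genes, and between 0 and 5 small ones. Depth and 2 samples per group limit what can be called: genes with values under 100 differed between BASC replicates by a median of 1.23 on the log2 scale, and an uncalled gene is not shown to be equal.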

Other observations

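The deposited annotation assigns KEGG pathways to 4832 of the tested genes, of which 8.77% were higher and 6.79% lower in BASC. Of 284 pathways with at least 10 tested genes, those named here were picked after their values were seen and carry no test. ECM-receptor interaction had 19 higher and 5 lower of 62 genes. Steroid biosynthesis had 7 higher and none lower of 16, and biosynthesis of unsaturated fatty acids 8 higher and 1 lower of 23. In the other direction, metabolism of xenobiotics by cytochrome P450 had none higher and 18 lower of 42, glutathione metabolism 3 higher and 14 lower of 50, and retinol metabolism 2 higher and 7 lower of 29. Histidine metabolism was split evenly, with 5 higher and 5 lower of 18.

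Several families outside the groups described held members with opposite directions. Among the tetraspanins, 3 of 19 were higher and 2 lower. Tspan11 was 3924 and 4219 against 473 and 927 (limma adjusted p = 0.00175, 0.0513 without BASC replicate 2), and Tspan1 was 785 and 607 against 2799 and 2592 (limma adjusted p = 0.00104, 0.0533 without Club replicate 1). Among the serpins, 3 of 15 were higher and 1 lower. Serpind1, heparin cofactor II, was 468 and 375 in BASC, 95 and 60 in Club cells and 70 and 52 in AT2 cells (BASC against Club, limma adjusted p = 0.0153), and lost its call without any 1 of the 4 libraries (up to 0.13). Esam, an endothelial adhesion molecule, was 677 and 419 against 2 and 3 (limma adjusted p = 0.000103), with 1087 and 964 in AT2 cells.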
